A study of Homo sapiens with 6 samples.

Results

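Mitosis and the G2 phase that precedes it are run by a small set of kinases, cyclins, motor proteins and chromosome proteins, most of which dividing cells make anew in each cycle. The transcripts of 43 such genes, taken by symbol from a list made by gene function, were followed here in SNU16 cells after knockdown of ENO1, out of 30716 genes in the table. ENO1 is the gene of alpha-enolase, an enzyme of glycolysis. SNU16 is a human gastric carcinoma line that grows largely in suspension. The shENO1 cells had received a lentivirus with a short hairpin RNA (shRNA) against ENO1 and were enriched with puromycin for 2 days, and the shcon cells carried a non-targeting shRNA. Each group had 3 RNA-seq libraries, whose values are given below in the order of replicates 1, 2 and 3. The submitters call these biological replicates, but nothing says that they were separate cultures, so p-values measure the spread between these libraries, which may be technical. The labels name no more than 1 shRNA against ENO1, so loss of ENO1 and any other effect of this shRNA cannot be told apart.

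In dividing cells, cyclin B binds the kinase CDK1, and the complex, switched on by CDC25 phosphatases, drives entry into mitosis. Chromosomes are then condensed by condensin, attached through kinetochores to spindle microtubules, and held by the spindle checkpoint until all are attached. The anaphase-promoting complex (APC/C) then destroys cyclin B and the cell divides. Transcription of many of these genes peaks in G2 and mitosis, is held down in resting cells by the DREAM complex and is raised in cycling cells by B-MYB with the MuvB proteins and by FOXM1. In tumors their transcripts are widely used as a measure of the share of dividing cells.

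The libraries held 15572376 to 16963855 fragments, as recovered from the smallest steps of the deposited values. Levels are given in FPKM, the fragments of a gene per kilobase of exon, scaled to the depth of its library. A total of 15181 genes that averaged 0.5 FPKM or more were tested by limma on log2(FPKM + 1), with adjusted p under 0.05 as the threshold. Of these, 15.1% were higher and 14.4% lower in shENO1 cells, and their median log2 fold change was 0.029. ENO1 was measured at 99.5, 84.9 and 91.1 FPKM in shENO1 cells, against 323, 312 and 386 FPKM in shcon cells. Its log2 fold change was -1.88 (SE 0.11, adjusted p = 0.000425), and each shENO1 library lay far below each control. Of the markers of the labelled cell type, KRT8 and KRT18 stood at 85.9 to 122 FPKM in the shENO1 group and 193 to 278 FPKM in the shcon group, whereas EPCAM and CDH1 stood at 0.602 to 1.59 FPKM in all libraries and KRT19 was at or near 0. Of 6 epithelial markers tested, 3 were lower and 0 higher, and the summed level of the list was 208 to 245 FPKM in the shENO1 group, against 448 to 565 FPKM in the shcon group. Of 4 fibroblast markers tested, 3 were lower and 0 higher. The list summed to 14.5 to 15.1 FPKM in the shENO1 group and 22.2 to 29.2 FPKM in the shcon group. LUM averaged 7.17 FPKM in the shENO1 group and 10.4 FPKM in the shcon group, DCN 2.63 and 8.91 FPKM, and COL1A1 4.70 and 6.12 FPKM. CLDN7 averaged 13.1 FPKM in the shENO1 group and 29.5 FPKM in the shcon group, and CLDN4 8.11 and 7.18 FPKM. In every library LUM, DCN and COL1A1 thus lay above EPCAM and CDH1 but below KRT8, KRT18 and CLDN7. The cells are labelled as gastric carcinoma. PDGFRB averaged 0.211 FPKM in the shENO1 group and 0.882 FPKM in the shcon group, and COL3A1 was near 0. Of the leukocyte markers, PTPRC, CD8A and CD68 were at or near 0 in all libraries. The part of these markers in the results below was not tested.

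Mitosis and G2 genes were mostly upregulated in ENO1-knockdown cells. Of the 43 genes, 41 passed the level filter. A total of 27 (65.9%) were higher in shENO1 cells, against 15.1% of all genes tested. The genes were chosen with earlier results of these data known, so this difference in share has no test. Of the 41, 0 were lower and 14 did not pass the threshold. At an unadjusted limma p under 0.05, 31 were higher and 0 lower, with 3428 higher and 3096 lower of all 15181 genes tested. By limma-voom on the recovered fragments, 30 were higher and 0 lower, with 17.8% higher and 16.4% lower of all genes. In all 27, each shENO1 library lay above each shcon library, which held for 25.0% of all genes tested, and in the other 14 the groups overlapped. The median log2 fold change of the 41 genes was 0.54, and 40 of the 41 values were above 0, with CDC20 the exception. Among the 27, the ratio of the group means lay between 1.30 for TPX2 and 2.14 for CKAP2L. For a single gene, 3 libraries against 3 cannot go below p = 0.1 in an exact permutation test (two-sided). These are bulk libraries, in which more cells in G2 or mitosis and more of these transcripts per cell cannot be told apart.

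**Figure D1:**
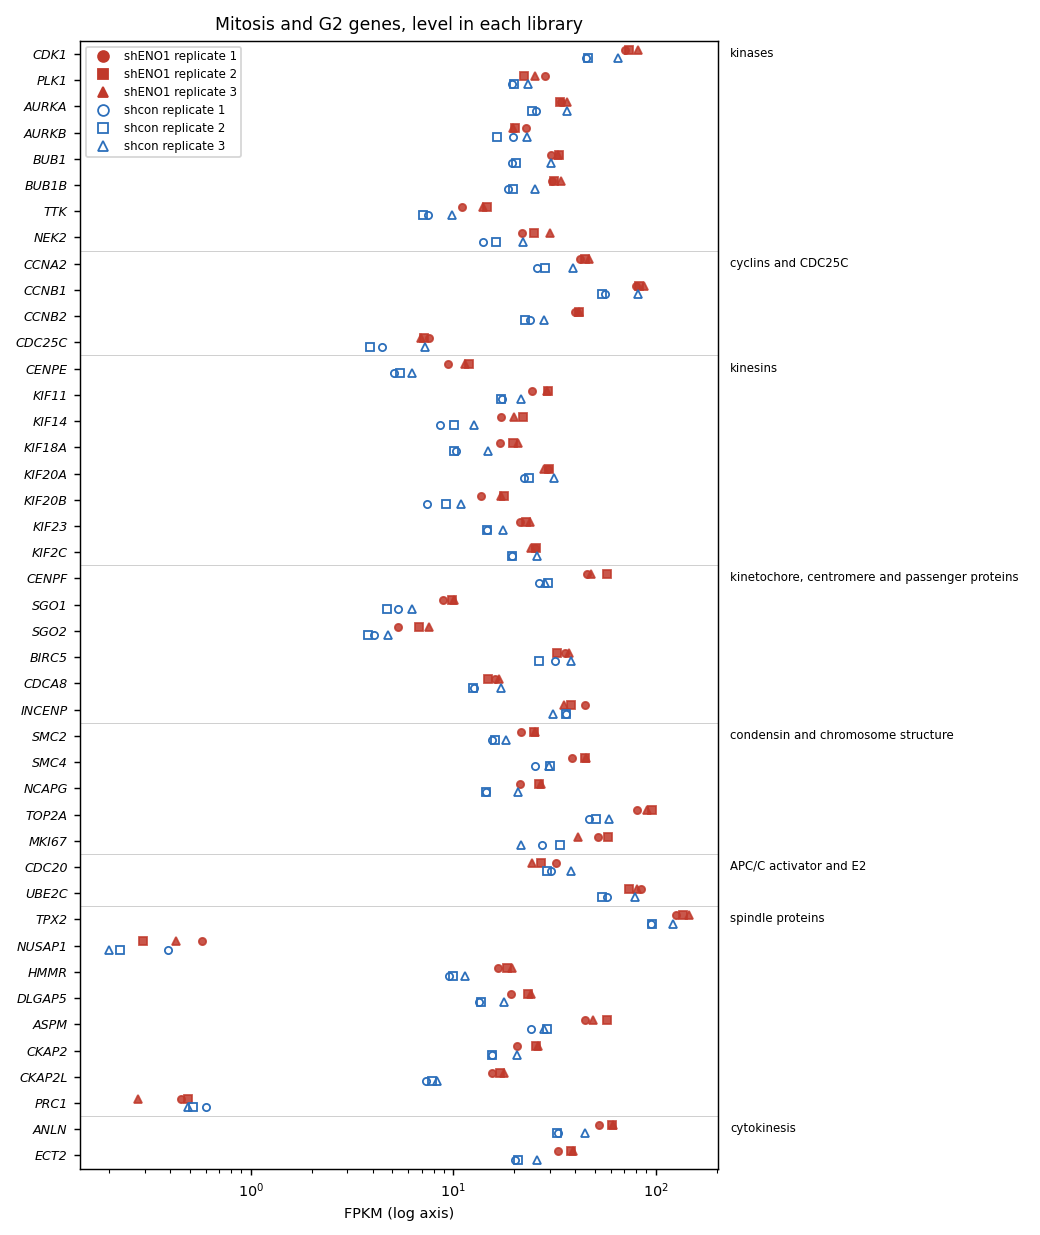
FPKM (log axis) of the 43 mitosis and G2 genes in each of the 6 libraries, grouped by role, with shENO1 as filled and shcon as open symbols and 1 symbol shape per replicate number. In 27 genes the filled symbols all lie right of the open ones, and NUSAP1 and PRC1 lie below 1 FPKM in every library.

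The kinases of entry into mitosis and of the checkpoint were higher in 3 of 8 cases, all by less than 2-fold. CDK1, the kinase that drives entry, stood at 70.3, 74.0 and 82.0 FPKM in shENO1 cells, against 45.4, 46.2 and 65.1 FPKM in shcon cells. The groups did not overlap, although shcon replicate 3 lay closer to the shENO1 libraries than to the other controls, and the log2 fold change was 0.54 (SE 0.15, adjusted p = 0.0305), which no longer passed once the overall dependence of fold changes on GC content and on exon length was taken out (0.21, adjusted p = 0.0648). TTK, the MPS1 kinase that starts the spindle checkpoint at unattached kinetochores, had 11.1, 14.7 and 14.0 FPKM in shENO1 cells, against 7.50, 7.09 and 9.88 FPKM in shcon cells. It gave the largest change of the kinases, 0.64 on the log2 scale (SE 0.15, adjusted p = 0.0169). BUB1B, whose product BUBR1 is part of the inhibitor that the checkpoint sends to the APC/C, had 30.6, 31.4 and 34.0 FPKM in shENO1 cells, against 18.6, 19.7 and 25.2 FPKM in shcon cells. Its log2 fold change was 0.58 (SE 0.12, adjusted p = 0.0131), and by the annotation 10.2% of its exon bases are shared with the read-through gene BUB1B-PAK6 on the same strand.

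The other 5 kinases did not pass. BUB1, which marks centromeres for the checkpoint, and NEK2, which separates centrosomes, had log2 fold changes of 0.47 (adjusted p = 0.0636) and 0.54 (adjusted p = 0.0522). Both passed with the replicate number as a block, at adjusted p = 0.0354 for BUB1 and 0.00598 for NEK2, a fit in which 30 of the 41 genes were higher (19.3% of all genes tested). PLK1, which acts on centrosomes, kinetochores and cytokinesis, averaged 25.4 ± 2.89 FPKM in the shENO1 group and 21.0 ± 2.14 FPKM in the shcon group (SD, n = 3 in both), for a log2 fold change of 0.26 (adjusted p = 0.123), and shares 11.6% of its exon bases with the antisense gene AC008870.3 in the annotation. The groups of both Aurora kinases overlapped. AURKA, which matures the spindle poles, gave 0.28 (adjusted p = 0.186), with the highest control at 36.5 FPKM beside a highest shENO1 library of 36.6 FPKM. AURKB, the kinase of the chromosomal passenger complex, gave 0.087 (adjusted p = 0.646) and changed sign to -0.035 without shcon replicate 2.

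Of the cyclins, CCNB2 stood apart with little spread between libraries. CCNB2 encodes cyclin B2, a partner of CDK1, and had 39.9, 41.8 and 41.7 FPKM in shENO1 cells, against 23.9, 22.6 and 28.2 FPKM in shcon cells. Its log2 fold change was 0.71 (SE 0.10, adjusted p = 0.00458). CCNA2 encodes cyclin A2, which acts from S phase to early mitosis, and had 42.4, 44.8 and 46.8 FPKM in shENO1 cells, against 25.9, 28.5 and 38.9 FPKM in shcon cells. The groups were apart here too, and the log2 fold change was 0.53 (adjusted p = 0.0322). CCNB1, the main mitotic cyclin and second in level among the 43 genes, had 79.5, 82.5 and 87.7 FPKM in shENO1 cells, against 56.3, 54.0 and 81.8 FPKM in shcon cells. In shcon replicate 3 it lay inside the shENO1 range, and it missed the threshold (0.40, adjusted p = 0.0919), which it passed with the replicate block (adjusted p = 0.0404). CDC25C, a phosphatase that activates CDK1, had the same shape, with 6.96 to 7.56 FPKM in the shENO1 group and 3.89 to 7.26 FPKM in the shcon group (0.45, adjusted p = 0.103).

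Among the 8 kinesins, the motor proteins of the spindle, 6 were higher. KIF14, which works in cytokinesis, had 17.1, 22.1 and 20.1 FPKM in shENO1 cells, against 8.58, 10.1 and 12.7 FPKM in shcon cells. The lowest shENO1 library lay well above the highest control, and the log2 fold change was 0.86 (SE 0.15, adjusted p = 0.00756). CENPE, the kinetochore motor that brings chromosomes to the spindle equator, had 9.40, 12.0 and 11.5 FPKM in shENO1 cells, against 5.10, 5.46 and 6.25 FPKM in shcon cells. It was close to 2-fold higher, with a ratio of means of 1.96 and a log2 fold change of 0.85 (SE 0.12, adjusted p = 0.00431). KIF20B, a motor of late cytokinesis, had 13.8, 17.8 and 17.2 FPKM in shENO1 cells, against 7.46, 9.16 and 10.9 FPKM in shcon cells, for a log2 fold change of 0.77 (SE 0.15, adjusted p = 0.0104). KIF18A, which limits chromosome movement at the equator, gave 0.69 (adjusted p = 0.0163). KIF11, the motor that pushes the spindle poles apart, gave 0.54 (adjusted p = 0.0163), and KIF23, of the centralspindlin complex of the midzone, gave 0.52 (adjusted p = 0.0100).

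The 2 kinesins that did not pass were those with the most GC in their transcripts. KIF20A, which carries the passenger complex to the midzone, had the highest mean of the 8, with 29.4, 29.7 and 27.9 FPKM in shENO1 cells, against 22.3, 23.6 and 31.4 FPKM in shcon cells. Its highest library was thus a control (0.18, adjusted p = 0.323). KIF2C, the depolymerase MCAK that corrects wrong attachments, gave 0.22 (adjusted p = 0.201), again with its highest library in the shcon group.

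Of the 6 kinetochore, centromere and passenger genes, 3 were higher. CENPF, a protein of the outer kinetochore, and both shugoshins, which protect centromeric cohesin, were higher, whereas none of the 3 other subunits of the chromosomal passenger complex, which corrects attachments with AURKB, passed. This division did not hold with the GC and length trends removed, where SGO2 no longer passed (0.11, adjusted p = 0.323) and INCENP (0.50, adjusted p = 0.00290) and CDCA8 (0.34, adjusted p = 0.0378) did, and no test compared the complexes. CENPF had 46.0, 57.4 and 48.1 FPKM in shENO1 cells, against 26.5, 29.5 and 28.3 FPKM in shcon cells, with tight controls and a log2 fold change of 0.82 (SE 0.11, adjusted p = 0.00393). SGO1 had 8.87, 9.83 and 10.1 FPKM in shENO1 cells, against 5.32, 4.73 and 6.25 FPKM in shcon cells, and SGO2 had 5.37, 6.79 and 7.63 FPKM in shENO1 cells, against 4.04, 3.79 and 4.78 FPKM in shcon cells. The change was 0.73 for SGO1 (SE 0.11, adjusted p = 0.00546) and 0.54 for SGO2 (SE 0.13, adjusted p = 0.0226) on the log2 scale. By the annotation, 17.7% of the SGO1 exon bases lie under its antisense gene SGO1-AS1, and whether the counting used strand is not given in the sources used here. Of the passenger subunits, BIRC5 (survivin) gave 0.13 (adjusted p = 0.480), CDCA8 (borealin) gave 0.16 (adjusted p = 0.370) and INCENP, the scaffold of the complex, gave 0.19 (adjusted p = 0.236). BIRC5 and CDCA8 both had their highest library in the shcon group, while INCENP had 35.4 to 44.5 FPKM in the shENO1 group and 31.0 to 36.0 FPKM in the shcon group.

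All 5 genes of chromosome structure were higher, but with the GC and length trends removed only TOP2A and MKI67 passed, and the median of the 5 was 0.25 in place of 0.58. TOP2A, the topoisomerase that untangles sister chromatids, had 81.0, 96.2 and 90.5 FPKM in shENO1 cells, against 46.8, 50.5 and 59.0 FPKM in shcon cells. Its lowest shENO1 library lay far above its highest control, with a log2 fold change of 0.77 (SE 0.11, adjusted p = 0.00506). MKI67, whose product Ki-67 coats mitotic chromosomes and is the common marker of proliferation, had 52.1, 58.2 and 41.5 FPKM in shENO1 cells, against 27.5, 33.6 and 21.6 FPKM in shcon cells. Replicate 3 was the lowest of both groups, the groups were apart, and the log2 fold change was 0.86 (SE 0.18, adjusted p = 0.0125). SMC4, a core subunit of condensin, had 38.5, 44.9 and 45.2 FPKM in shENO1 cells, against 25.4, 29.9 and 29.7 FPKM in shcon cells (0.58, SE 0.11, adjusted p = 0.00832). Its partner SMC2 gave 0.50 (adjusted p = 0.0119) and NCAPG, a subunit of condensin I, gave 0.57 (adjusted p = 0.0322). Exons on the opposite strand cover 18.5% of SMC4 (TRIM59) and 33.1% of NCAPG (LCORL) in the annotation.

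Neither gene of the APC/C axis passed. CDC20, the activator through which the checkpoint holds the APC/C, was the only one of the 41 genes with a lower mean in shENO1 cells, and had 32.1, 27.1 and 24.4 FPKM in shENO1 cells, against 30.5, 29.1 and 38.1 FPKM in shcon cells. The groups overlapped, with a log2 fold change of -0.22 (SE 0.14, adjusted p = 0.263). UBE2C, the ubiquitin-conjugating enzyme of the APC/C, had 84.1, 73.7 and 80.6 FPKM in shENO1 cells, against 57.8, 54.4 and 78.9 FPKM in shcon cells. The value of shcon replicate 3 lay inside the shENO1 range (0.33, adjusted p = 0.120).

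The spindle proteins that could be tested were higher in 6 of 6 cases. CKAP2L, a spindle pole protein needed for an orderly spindle, gave the largest change of all 43 genes. It had 15.5, 17.1 and 17.8 FPKM in shENO1 cells, against 7.34, 7.87 and 8.33 FPKM in shcon cells. The libraries of each group lay close together, at 16.8 ± 1.20 FPKM in the shENO1 group and 7.85 ± 0.498 FPKM in the shcon group (SD, n = 3 in both), and the log2 fold change was 1.01 (SE 0.09, adjusted p = 0.00178). ASPM, which organizes microtubule minus ends at the poles, had 44.7, 57.6 and 48.8 FPKM in shENO1 cells, against 24.3, 29.1 and 28.0 FPKM in shcon cells, for a log2 fold change of 0.87 (SE 0.12, adjusted p = 0.00431). HMMR, a hyaluronan receptor that also binds spindle microtubules, had 16.7, 18.5 and 19.5 FPKM in shENO1 cells, against 9.56, 10.0 and 11.4 FPKM in shcon cells, for a log2 fold change of 0.76 (SE 0.10, adjusted p = 0.00411). In both, the 3 libraries of each group lay together with a wide gap between the groups.

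TPX2, which activates AURKA on the spindle, had the highest level of the 43 genes and the smallest change of the 27, with 125, 137 and 145 FPKM in shENO1 cells, against 95.3, 95.3 and 122 FPKM in shcon cells (0.39, SE 0.12, adjusted p = 0.0471). DLGAP5, which stabilizes microtubules near chromosomes, gave 0.55 (adjusted p = 0.0221) and CKAP2, a relative of CKAP2L, gave 0.47 (adjusted p = 0.0408). Both cytokinesis genes were higher. ECT2, the exchange factor that activates RhoA at the cleavage furrow, had 33.1, 38.2 and 39.2 FPKM in shENO1 cells, against 20.3, 20.9 and 26.1 FPKM in shcon cells (0.70, SE 0.12, adjusted p = 0.00735). ANLN, the furrow scaffold anillin, had 52.2, 60.8 and 61.5 FPKM in shENO1 cells, against 33.1, 32.4 and 44.6 FPKM in shcon cells (0.66, SE 0.14, adjusted p = 0.0128).

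NUSAP1 and PRC1, both microtubule bundling proteins of the spindle, were too low to be tested. NUSAP1 had 0.577, 0.294 and 0.427 FPKM in shENO1 cells, against 0.391, 0.225 and 0.200 FPKM in shcon cells. This corresponds to 18 to 34 fragments and 12 to 23 fragments, at a fitted exon length of 3603 bases (2875 bases in the annotation). PRC1 had 0.455, 0.491 and 0.279 FPKM in shENO1 cells, against 0.600, 0.521 and 0.490 FPKM in shcon cells. With no filter on level their log2 fold changes were 0.17 for NUSAP1 (adjusted p = 0.396) and -0.13 for PRC1 (adjusted p = 0.491). In the annotation, 57.6% of the PRC1 exon bases are shared on the same strand with the longer gene ENSG00000284946 (chr15:90966190-91022566, GRCh38) and 62.2% of those of NUSAP1 with AC087721.2, which was not analysed here. ENSG00000284946 itself had 2.47, 3.20 and 2.97 FPKM in shENO1 cells, against 1.99, 2.37 and 1.60 FPKM in shcon cells (0.38, adjusted p = 0.0622). The part of these overlaps in the low levels was not tested.

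The libraries of a group differed among themselves. The 43 genes took up 0.701%, 0.788% and 0.756% of the fragments of the shENO1 libraries, against 0.450%, 0.474% and 0.554% of those of the shcon libraries. Every shENO1 library was thus above every control, and shcon replicate 3 was the highest control. It was the highest control in 36 of the 41 genes as well (the exceptions were CENPF, INCENP, SMC4, MKI67 and ASPM), while shENO1 replicate 1 was the lowest of its group in 29. The median deviation of the 41 genes from their own means was 0.17, 0.32 and 0.36 in shENO1 libraries, against -0.41, -0.37 and -0.039 in shcon libraries, on the log2 scale. Compared with shcon replicates 1 and 2 alone, each shENO1 library was higher in 39 of the 41 genes, with INCENP and CDC20 the exceptions. Without shcon replicate 3, 37 of the 41 genes passed (90.2%, with 19.9% of all genes tested), all 27 among them, and the median was 0.68. The 4 that then still missed it were AURKB, BIRC5, INCENP and CDC20. The number depended on other libraries too, and so did that of all genes. It was 27 without shENO1 replicate 1 (14.3% of all genes tested were then higher), 12 without shENO1 replicate 2 (4.96%), 14 without shENO1 replicate 3 (6.30%), 14 without shcon replicate 1 (6.11%) and 18 without shcon replicate 2 (10.0%). A total of 12 genes passed under each of these 6 omissions, and these were CCNB2, CENPE, KIF14, KIF20B, CENPF, SGO1, SMC4, TOP2A, HMMR, ASPM, CKAP2L and ECT2. The share of all genes tested that passed under each of the 6 was not counted, so the 12 cannot be read against it.

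**Figure D2:**
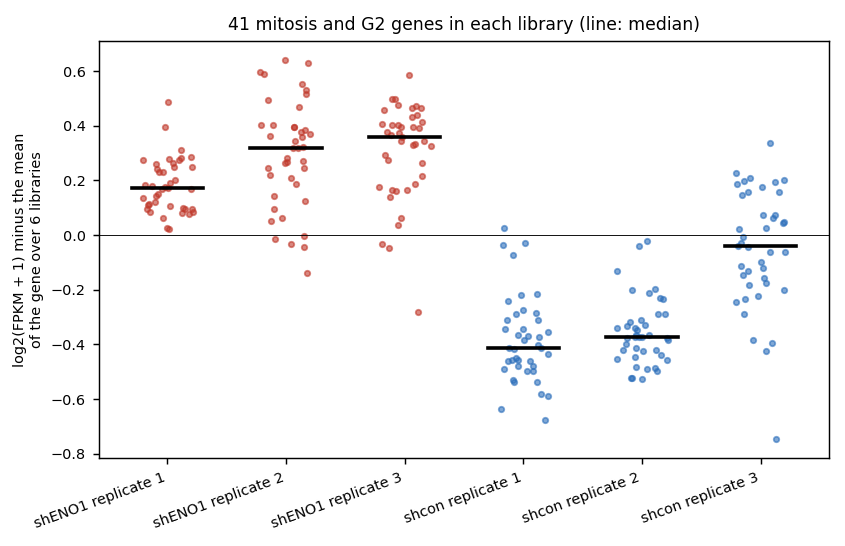
Deviation of each of the 41 tested mitosis and G2 genes from its mean over the 6 libraries (log2 scale, vertical axis) by library, with a line at the median. The medians are 0.17, 0.32 and 0.36 in shENO1 libraries and -0.41, -0.37 and -0.039 in shcon libraries, so shcon replicate 3 lies nearest to the shENO1 libraries.

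Across all genes, the fold changes followed the base composition of the transcripts, and so did those of the mitosis and G2 genes. Transcripts with much G and C tended to be lower and those with little higher in shENO1 cells, with a Spearman rho of log2 fold change and GC content of -0.60 over 15031 genes and -0.67 over the 41 (Pearson r -0.77 over the 41). The points share the same 6 libraries, so these values are descriptions. The 41 genes were poor in GC, with a median of 41.7% against 48.1% for all genes tested. The 27 higher genes had 34.2% to 48.3% and the 14 others 41.8% to 59.6%. Of the 31 genes under the median of all genes, 26 were higher, and of the 10 at or over it only MKI67 was. The trend also separated the libraries. In the tenth of genes with the highest GC content the median deviation was -0.028, -0.38 and -0.42 in shENO1 libraries, against 0.39, 0.29 and 0.16 in shcon libraries. The 27 genes also had long exons, with a median total exon length of 5219 bases against 3216.5 bases for the 14 others.

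**Figure D3:**
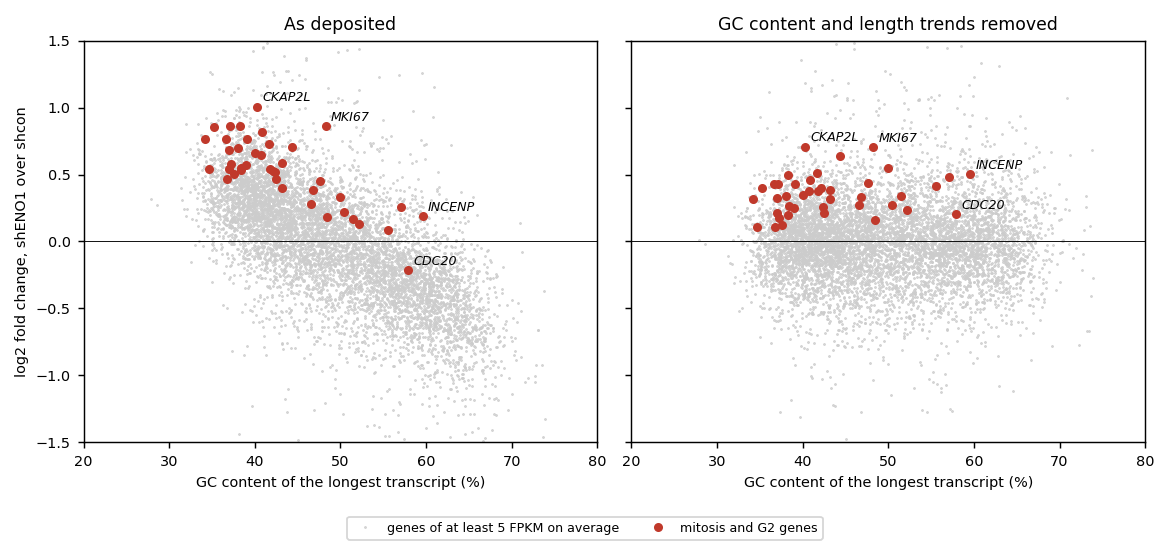
Log2 fold change of FPKM + 1, shENO1 over shcon (vertical axis), against the GC content of the longest transcript in percent, before and after the trends of both GC content and exon length were taken out, for genes of at least 5 FPKM on average (gray) and the mitosis and G2 genes (red). The vertical axis leaves out 21 gray points before and 17 after removal. Before removal the red points fall with GC content together with the gray ones, and after it all 41 red points lie above 0, between 0.11 and 0.71.

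When the trends over base composition and exon length were taken out of each library, most changes were smaller and other genes of the set passed. The median of the 41 genes was 0.34 with 0.028 for all genes tested, and all 41 values were above 0. A total of 28 genes were higher (68.3%, with 12.1% of all genes tested) and 0 lower (10.1% of all), and 21 of the 28 were among the 27. With the replicate block as well, 27 passed, and KIF11 was lost (adjusted p = 0.0600, against 0.0369 without the block). CDK1 (0.21, adjusted p = 0.0648), SGO2 (0.11, adjusted p = 0.323), SMC2 (0.13, adjusted p = 0.0881), SMC4 (0.18, adjusted p = 0.0620), NCAPG (0.25, adjusted p = 0.0845) and CKAP2 (0.11, adjusted p = 0.227) no longer passed. All 3 condensin subunits were among these. In their place PLK1 (0.48, adjusted p = 0.0161), AURKB (0.41, adjusted p = 0.0213), INCENP (0.50, adjusted p = 0.00290), CDCA8 (0.34, adjusted p = 0.0378), UBE2C (0.55, adjusted p = 0.00972), NEK2 (0.38, adjusted p = 0.0408) and CCNB1 (0.31, adjusted p = 0.0349) passed. Of the passenger complex, AURKB, INCENP and CDCA8 thus passed in this form and not as deposited, and BIRC5 (0.24, adjusted p = 0.173) in neither. CDC20, at -0.22 before removal, was at 0.20 after it (adjusted p = 0.171). CKAP2L (0.71), MKI67 (0.70) and CCNB2 (0.64) had the largest changes in this form. How much of the trend is technical was not tested, and its removal would also take away biology that follows base composition. The removal did not leave the values flat. Spearman rho with GC content was then 0.15 over 15031 genes and 0.25 over the 41, opposite in sign to before. With exon length it went from 0.18 to -0.21 over 15031 genes and from 0.66 to -0.0091 over the 41. The part of this in the genes that passed only in this form was not tested. With only the GC trend removed 18 genes passed (10.7% of all genes tested), and with only the length trend removed 34 passed (17.0% of all genes tested).

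**Figure D4:**
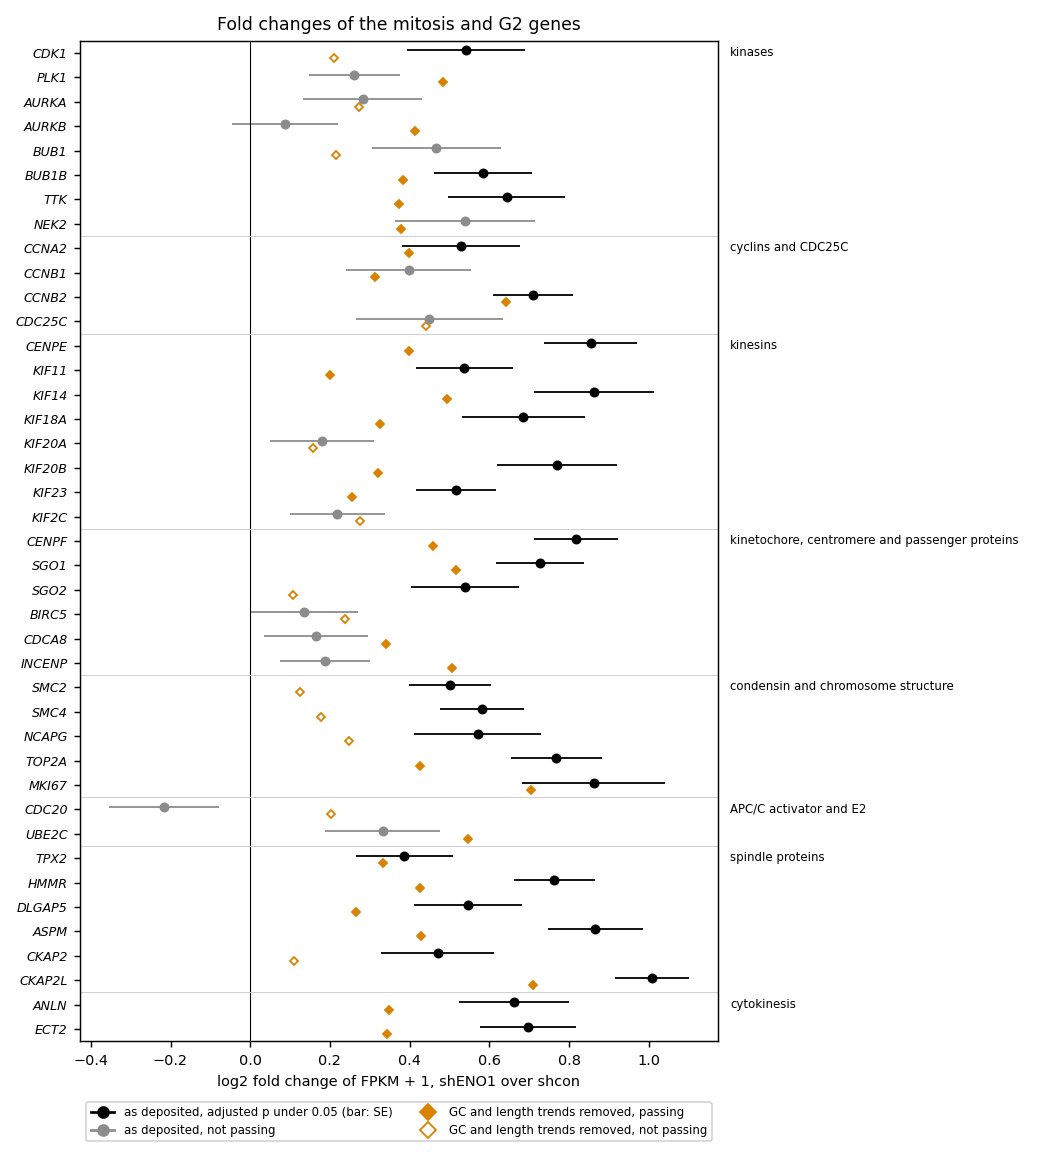
Log2 fold change of FPKM + 1, shENO1 over shcon (horizontal axis), of the 41 tested genes by role. Circles with bars (SE) are the values as deposited, black where adjusted p was under 0.05, and diamonds the values after removal of both trends, filled where they passed. CKAP2L has the largest value in both forms, and the passenger genes AURKB, CDCA8 and INCENP lie further right after removal.

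Many promoters of genes of this set carry 2 short sequences known from G2 and mitosis genes. The cell cycle genes homology region (CHR), with the letters TTTGAA or TTTAAA, is the element bound by MuvB complexes, and CCAAT boxes, bound by NF-Y, often lie upstream of it. RefSeq promoters (GRCh38.p14, from 250 bases before to 50 bases after the start) matched 38 of the 43 genes by symbol (not TTK, UBE2C, BIRC5, TPX2 and AURKA), and both strands were searched. TTTGAA was found in 26 of the 38 promoters (68.4%), with 15.2% of all 35116 promoters, and TTTAAA in 13 (34.2%, with 12.2% of all). CCAAT was found in 29 (76.3%, with 34.6% of all) and 2 or more copies of it in 18 (47.4%, with 10.8% of all). A CHR form together with CCAAT was found in 24 (63.2%, with 9.27% of all). Either CHR form was found in 22 of the 25 promoters of higher genes and in 7 of the 11 promoters of tested genes that did not pass. A CHR form together with CCAAT was in 16 of 25 and 6 of 11. By single sequence, TTTGAA was found in 20 of 25 and 4 of 11, TTTAAA in 8 of 25 and 4 of 11, and CCAAT in 18 of 25 and 9 of 11. There were 2 or more copies of CCAAT in 10 of 25 and 7 of 11. These differences have no test. A match is a description of the letters and not a site.

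To show what these elements look like, the promoters are printed of CKAP2L with the largest change, of CCNB2 and TOP2A, which passed with and without the trends, and of CDC20, the gene with the lower mean. Sequences run 5′ to 3′ on the strand of the gene, with the letters of either CHR form and of the CCAAT box, on both strands, in capitals. The windows are chr2:112764560-112764859 (minus strand) for CKAP2L, chr15:59104896-59105195 (plus strand) for CCNB2, chr17:40417847-40418146 (minus strand) for TOP2A and chr1:43358731-43359030 (plus strand) for CDC20.
CKAP2L: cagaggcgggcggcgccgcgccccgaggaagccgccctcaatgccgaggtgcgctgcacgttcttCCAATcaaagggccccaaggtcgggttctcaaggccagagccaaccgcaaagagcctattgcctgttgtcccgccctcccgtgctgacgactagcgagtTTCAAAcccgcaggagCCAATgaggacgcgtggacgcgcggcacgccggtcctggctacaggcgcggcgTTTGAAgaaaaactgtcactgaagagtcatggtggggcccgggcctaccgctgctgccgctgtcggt
CCNB2: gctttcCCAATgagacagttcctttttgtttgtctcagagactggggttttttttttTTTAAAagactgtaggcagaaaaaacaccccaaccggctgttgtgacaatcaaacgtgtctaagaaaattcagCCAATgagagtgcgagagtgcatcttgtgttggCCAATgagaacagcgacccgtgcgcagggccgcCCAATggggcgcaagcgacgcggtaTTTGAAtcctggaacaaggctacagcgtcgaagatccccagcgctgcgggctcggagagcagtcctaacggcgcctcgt
TOP2A: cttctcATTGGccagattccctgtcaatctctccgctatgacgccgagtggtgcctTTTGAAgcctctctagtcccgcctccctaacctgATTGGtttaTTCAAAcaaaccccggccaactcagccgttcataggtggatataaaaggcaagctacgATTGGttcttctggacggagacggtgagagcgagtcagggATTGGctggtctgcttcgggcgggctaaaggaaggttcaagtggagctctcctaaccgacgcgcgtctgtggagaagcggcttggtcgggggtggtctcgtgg
CDC20: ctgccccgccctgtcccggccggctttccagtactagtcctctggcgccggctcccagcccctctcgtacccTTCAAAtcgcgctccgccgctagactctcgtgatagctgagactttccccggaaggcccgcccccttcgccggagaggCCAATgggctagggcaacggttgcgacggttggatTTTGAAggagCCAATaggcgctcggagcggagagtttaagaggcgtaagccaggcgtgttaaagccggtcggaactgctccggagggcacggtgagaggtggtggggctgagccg
CKAP2L held TTTGAA at -17 to -12 from the start and CCAAT at -70 to -66 and -185 to -181. CCNB2 held TTTGAA at -29 to -24 and 3 of its 4 CCAAT copies between -120 and -50. TOP2A held 4 CCAAT copies, all on the opposite strand, with TTTGAA at -194 to -189 and, on the opposite strand, at -151 to -146. CDC20 held the same letters, with TTTGAA at -65 to -60 and CCAAT at -55 to -51 and -100 to -96.

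Other genes of cell division were taken from lists written by role. As deposited, they are read against the 15.1% higher and 14.4% lower of all genes tested. Of 36 other kinetochore and checkpoint genes tested, 10 were higher and 3 lower, with a median log2 fold change of 0.27. KNL1, the kinetochore scaffold that docks BUB1 and BUBR1, averaged 19.4 ± 2.24 FPKM in the shENO1 group and 9.40 ± 1.14 FPKM in the shcon group (SD, n = 3 in both), for a log2 fold change of 0.97 (adjusted p = 0.00355). CENPQ, of the inner kinetochore, gave 0.68 and NUF2, of the microtubule-binding NDC80 complex, gave 0.61, whereas PMF1, a subunit of the MIS12 complex, gave -0.79 (adjusted p = 0.0161). Of 14 genes of cohesin, the ring that holds sister chromatids together, and its regulators, 8 were higher and 0 lower, with a median of 0.39. STAG2, a cohesin subunit, gave 0.73, NIPBL, its loader, 0.65, PDS5A, a regulator, 0.58 and SMC3, a core subunit, 0.57. With the trends removed, where 12.1% of all genes tested were higher and 10.1% lower, 7 of the 14 were higher and 1 lower. The kinetochore list had 10 higher and 2 lower in that form. Without shcon replicate 3 it had 20 higher and 2 lower, with 3028 (19.9%) higher and 2799 lower of all genes tested.

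Of 23 centrosome, spindle and cytokinesis genes tested, 10 were higher and 1 lower (median 0.30), among them HAUS6 of the augmin complex (0.89), and the centriole genes CEP152 (0.84) and SASS6 (0.62), besides KNSTRN, the kinastrin of the kinetochore (0.61). Of 17 other regulators of G2 and mitosis, 6 were higher and 1 lower (median 0.21). ARPP19, an inhibitor of the phosphatase PP2A at mitotic entry, averaged 53.7 ± 4.60 FPKM in the shENO1 group and 30.5 ± 1.09 FPKM in the shcon group (0.79, adjusted p = 0.00334), and BORA, a cofactor of AURKA, gave 0.68. The kinases that hold CDK1 inactive differed in sign, with WEE1 at 0.59 (adjusted p = 0.00491) and PKMYT1 at -0.65 (adjusted p = 0.0249), and neither passed with the trends removed (0.19 and -0.12). Of 16 tested factors of the MuvB, FOXM1 and E2F group, 8 were higher and 0 lower (median 0.33), with the MuvB subunits LIN54 (0.70) and LIN9 (0.45) and the repressors E2F7 (0.61) and E2F8 (0.39) as the largest. With the trends removed 5 were higher and 1 lower (12.1% and 10.1% of all genes tested), and LIN9 and E2F8 no longer passed. In that form the centrosome list had 7 higher and 1 lower and the G2 and mitosis regulators 8 higher and 0 lower. Without shcon replicate 3 the G2 and mitosis regulators had 10 higher and 1 lower, with 3028 (19.9%) higher and 2799 lower of all genes tested.

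The APC/C marks cyclin B and securin for destruction. Of its 17 genes tested beside CDC20 and UBE2C, with 15.1% of all genes tested higher and 14.4% lower, 2 were higher (CDC27 at 0.65 and ANAPC1 at 0.36) and 2 lower (ANAPC11 at -0.68 and ANAPC2 at -0.62), with a median of 0.0070, and all 4 are subunits of the complex. With the trends removed 2 were higher and 6 lower (12.1% and 10.1% of all genes tested) and ANAPC1 no longer passed. Without shcon replicate 3 the counts were 4 higher and 2 lower, with 3028 (19.9%) higher and 2799 lower of all genes tested. Of 5 other mitotic kinesins, KIF15, which can stand in for KIF11 (0.65), and KIF4A, a motor that binds chromosomes (0.54), were higher and 0 lower. The median of these 5 kinesins was -0.016. In 2 of them each shENO1 library lay below each shcon library, which held for 3267 of all 15181 genes tested. Of 5 other condensin subunits, NCAPG2 (0.42), NCAPD3 (0.34) and NCAPH (0.30) were higher and 0 lower, with a median of 0.30. With the trends removed 3 of the 5 kinesins were higher, and so were 3 of the 5 condensin subunits, of which NCAPG2 no longer was 1.

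S phase is the stage of DNA replication before G2. Of 24 genes of this stage, limma called 0 higher and 5 lower over the 6 libraries, with 14.4% of all genes lower, and with a median of -0.15 (15.1% of all genes were higher). At an unadjusted limma p under 0.05, 0 were higher and 9 lower, with 3428 higher and 3096 lower of all 15181 genes tested. By limma-voom, 0 were higher and 6 lower, with 17.8% higher and 16.4% lower of all genes. Without shcon replicate 3, 2 were higher and 6 lower, with 3028 higher and 2799 lower of all genes tested. With the trends removed, 0 were higher and 5 lower, with 12.1% higher and 10.1% lower of all genes tested. The median of the 24 genes was then -0.037. MCM5, a subunit of the replicative helicase, had 16.1, 13.7 and 12.8 FPKM in shENO1 cells, against 24.9, 23.0 and 23.5 FPKM in shcon cells (-0.71, SE 0.10, adjusted p = 0.00468), and it also passed with the trends removed (-0.53). Its groups were well apart. UNG, which removes uracil from DNA, gave -0.49, and LIG1, the ligase of Okazaki fragments, gave -0.34, which no longer passed with the trends removed. TK1, thymidine kinase, averaged 50.7 ± 4.29 FPKM in the shENO1 group and 69.7 ± 9.95 FPKM in the shcon group (-0.45, adjusted p = 0.0299), but turned to 0.15 with the trends removed, where it did not pass. The difference between the S phase and the mitosis genes was not tested.

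**Figure D5:**
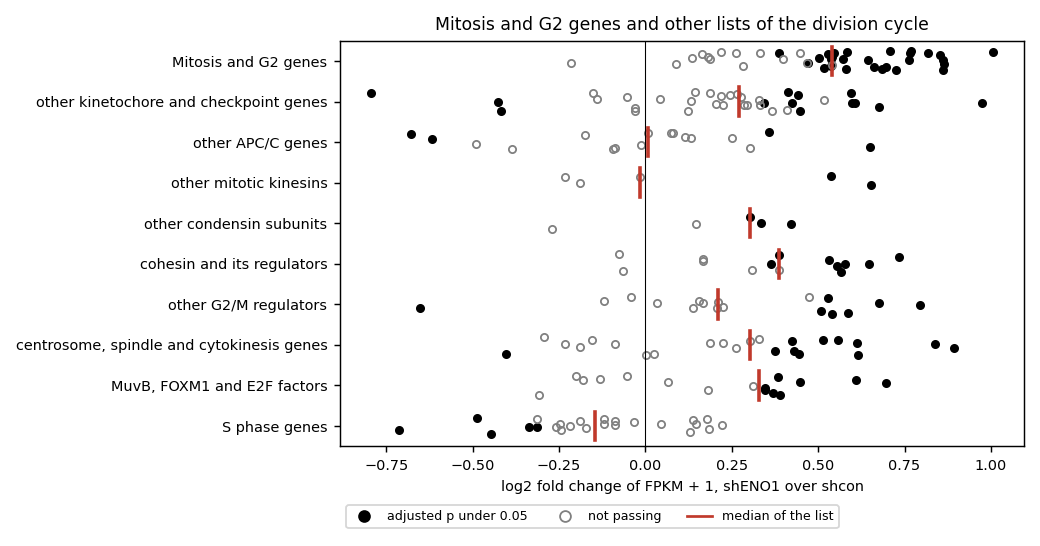
Log2 fold change of FPKM + 1, shENO1 over shcon (horizontal axis), of each tested gene in the mitosis and G2 set and in 9 other lists of the division cycle, filled where adjusted p was under 0.05, with a line at the median of each list. The mitosis and G2 genes have the median furthest right (0.54) and the S phase genes the median furthest left (-0.15).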

How the data were processed

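The submitters' processing notes list featureCounts, cutadapt and MultiQC beside the build GRCh38, and the protocol says that reads of low quality or short length were removed. The authors deposited 1 FPKM value per gene and library, with aligner, annotation release and strand setting of the counting not given in the sources used here. From the steps between low values, whole fragments were recovered within a tolerance of 0.05 for all but 30 of the 15181 genes tested. The tested members had 207 to 12673 fragments per library.

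The shENO1 and shcon libraries were compared by limma 3.58.1 (R 4.3.3, lmFit, eBayes with a trend) on log2(FPKM + 1), which understates the change of low genes, for genes that averaged 0.5 FPKM or more, with Benjamini-Hochberg adjustment over all 15181 genes. Base composition and exon length came from GENCODE release 29, and their trends were removed per library by natural splines with 4 degrees of freedom, fitted on 7256 genes outside all lists. Fits with other pseudocounts, filters, scalings and omitted libraries were alternatives, and limma-voom was added after seeing the data. The labels do not say that libraries with the same replicate number belong together. Their deviations from their groups had correlations of 0.23, 0.118 and 0.256, against -0.208 to 0.0607 for unequal numbers. On these values, which come from the same data, the numbers were taken as pairs in the fit with a replicate block. That fit is an alternative and not the main one. The limma fit, without removal of the GC and length trends, was tested on simulated data. The members and lists were chosen with earlier results of these data known. All 43 members are named. Values are given for every library for up to 3 members per class with the largest change among those that passed, for the member with the highest level and for genes singled out after their values were seen (CDC20, NUSAP1, PRC1, MCM5). Of each other list, up to 4 genes with the largest change among those that passed are named. Tables and figures were made in Python 3.11.15 (matplotlib 3.10.9, numpy 2.4.6, pandas 2.3.3). One marker gene is not reported here.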

Additional observations from a re-analysis of the deposited data

How the results depend on the processing

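The count of 27 higher mitosis and G2 genes was 25 to 31 with quantile normalization (31), median-of-ratios scaling (25), eBayes without a trend (25) or robust (26), or a mean of at least 5 FPKM (29), and 18 with no filter on low values. It was 30 by limma-voom and 1 (CKAP2L) with a required absolute log2 fold change of 1. With the replicate block, which treats equal replicate numbers as pairs, it was 30, the 27 among them, and among these genes it changed no call other than those of NEK2, BUB1 and CCNB1, while with both trends removed it gave 27 in place of 28, without KIF11. Leaving out 1 library gave 12 (without shENO1 replicate 2) to 37 (without shcon replicate 3). The median log2 fold change of 0.54 was 0.48 to 0.68 when 1 library was left out, 0.73 without shENO1 replicate 1 and shcon replicate 3 together, 0.32 with the GC trend removed and 0.34 with both trends removed, also with the block. The count of all genes higher was 2289 and that of all genes lower 2188. These were 1402 and 1302 with no filter, 753 to 3028 and 756 to 2799 when 1 library was left out, 3595 and 3590 without both libraries named above, and 125 and 169 with the required fold change, and 1339 genes were lower with the GC trend removed. Signs changed for AURKB, with 0.087 becoming -0.035 to 0.21 when 1 library was left out, for CDC20 (0.082 with the GC trend removed, 0.049 with the length trend removed, 0.20 with both, also with the block) and for TK1 (0.038 with the GC trend removed, 0.15 with both, also with the block). The cause of these shifts was not tested.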
